A study of Arabidopsis thaliana with 24 samples.

Results

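Seedlings that live on stored oil before their leaves work draw sugar from it through a fixed route, and the 10 genes described here encode that route from the oil body to sugar. They were taken from the deposited tables by gene identifier, 10 of 32833 genes, and all 10 passed the filter on low values. SDP1 encodes the lipase that opens up stored triacylglycerol. LACS6 and LACS7 encode the acyl-CoA synthetases that activate the released fatty acids at the peroxisome. KAT2 encodes the thiolase that closes each round of beta-oxidation, and CSY2 and CSY3 encode citrate synthases of the peroxisome, which take up the acetyl-CoA. ICL (isocitrate lyase) and MLS (malate synthase) encode the enzymes that define the glyoxylate cycle, PMDH2 a malate dehydrogenase of the peroxisome, and PCK1 the phosphoenolpyruvate carboxykinase that commits the carbon to sugar.

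As background, the glyoxylate cycle bypasses the decarboxylating steps of the citric acid cycle, so that acetyl-CoA from fatty acids can be built into sugar. In Arabidopsis its enzymes are known to be abundant during germination and to decline as the seedling turns green, when peroxisomes take on photorespiration. Abscisic acid (ABA) is the hormone that holds seeds dormant, and it is known to slow oil breakdown in germinating seeds. PP6-type phosphatases, of which FYPP3 is a catalytic subunit, are known to act on proteins of the ABA and auxin pathways.

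Transcripts were measured by RNA sequencing in 24 libraries of Arabidopsis thaliana seedlings in the Columbia 0 background, 3 libraries in each of 8 groups. The genotypes were nrp1 nrp2 FyPP3DN, FyPP3DN, nrp1 nrp2 and wild type (WT), each with 5 µM ABA for 24 h (+ABA) and without treatment over the same 24 h (control). The labels put the seedlings at 5 days before treatment, whereas the design text has them grown for 6 days and then treated for 1 day. Neither source names the promoter that drives FyPP3DN or the number of independent lines. Neither says whether replicates were separate cultures, so the p-values cover only the spread among these libraries, which may be technical. Values are FPKM (fragments scaled to transcript length and library depth), at an estimated 16.58 to 28.89 M fragments per library (M for mega, median 19.24 M). Differences are log2 differences of FPKM + 1 with their standard error (SE), tested with limma over 19500 genes, and a gene is called at a Benjamini-Hochberg adjusted p under 0.05.

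FYPP3 was higher in FyPP3DN than in WT without ABA (log2 1.68, adjusted p = 0.000139). With ABA it was not called (0.61, adjusted p = 0.214), and it fell with ABA in FyPP3DN (-0.99, adjusted p = 0.00402). Without ABA it was not called against WT in libraries with the label nrp1 nrp2 FyPP3DN (-0.22, adjusted p = 1), so no direction is drawn from that label as an effect of FyPP3DN. The labels do not say which NRP genes are mutated: of 4 genes with NRP names, AT3G27090 was lower in nrp1 nrp2 than in WT (-1.70, adjusted p = 3.4e-10) and the others were not called. In each group 1 library was plastid-rich (9.61% to 18.8% of FPKM from plastid genes) and 2 were plastid-poor (0.0252% to 0.0877%). The tissue label was checked with 8 nuclear photosynthesis genes and 8 root genes, none of which was at 0 in any library. The summed root genes ranged from 7.68 to 30.62 FPKM in plastid-rich and from 11.98 to 76.67 FPKM in plastid-poor libraries. The part of library type and tissue makeup in the results below was not tested beyond the repeats named there, and in such bulk samples fewer cells of a type and less RNA per cell cannot be told apart.

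All 10 genes were expressed in every library, at levels that differed by about 2 orders of magnitude in FPKM, which is scaled by length. PMDH2 was the highest, at a median of 294 FPKM over the 24 libraries, above every value of the next gene. KAT2 followed at 106 FPKM and PCK1 at 53.6 FPKM, and their ranges overlapped at the edges (KAT2 from 80.88, PCK1 up to 84.19 FPKM). CSY3 (22.3 FPKM), LACS6 (22.1 FPKM) and CSY2 (17.7 FPKM) overlapped in range, as did SDP1 (11.0 FPKM) and LACS7 (7.92 FPKM). MLS (2.65 FPKM) and ICL (median 1.5, mean 6.65 FPKM), the pair that defines the glyoxylate cycle, stood lowest. At the median depth 1 FPKM of ICL was worth about 42.6 fragments and 1 FPKM of MLS about 39.0.

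The genes also differed in how far they moved across the 24 libraries. From the lowest to the highest library the ratio was 1.38 for LACS6, 1.63 for LACS7, 1.67 for KAT2, 1.74 for SDP1, 1.8 for CSY2 and 1.98 for PMDH2. It was 2.18 for CSY3, 2.29 for PCK1, 6.25 for MLS and 137 for ICL. LACS6, LACS7, KAT2 and SDP1 thus had the smallest ratios, and ICL and MLS, the lowest in FPKM, had the largest. The ICL ratio sets 1 library at 56.09 FPKM against 1 at 0.41 FPKM.

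**Figure D1:**
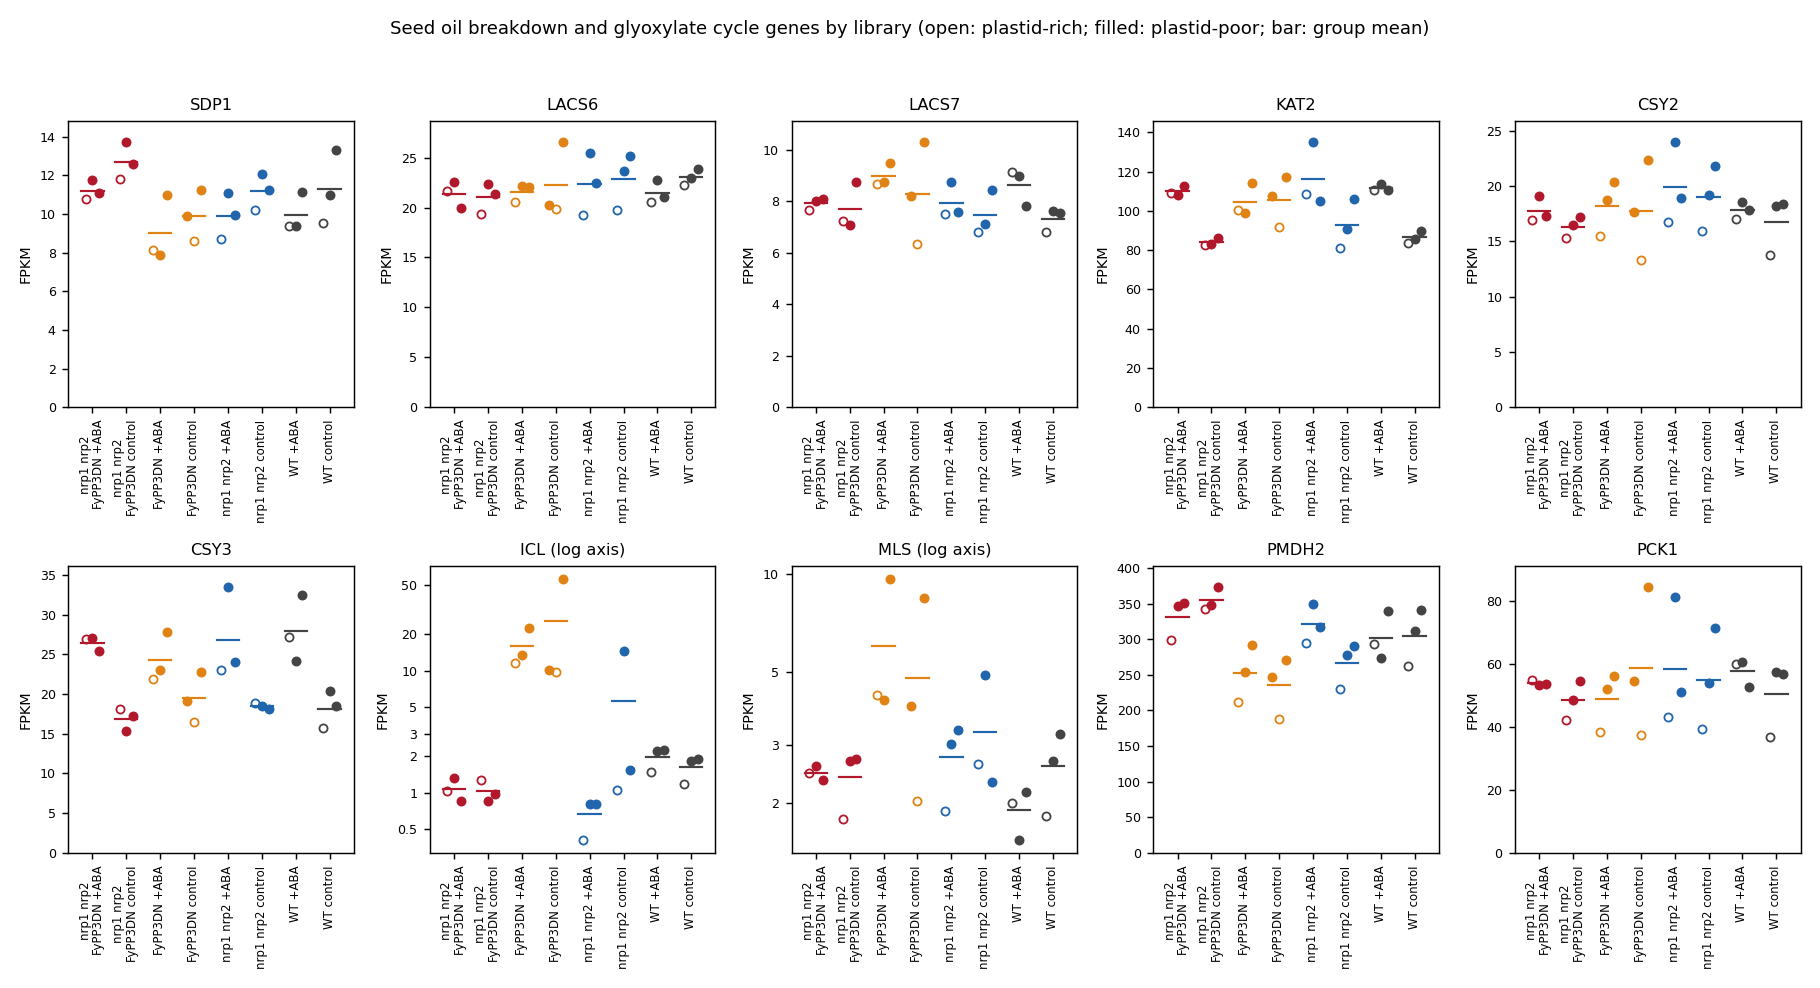
FPKM of each of the 10 genes (vertical axes, from 0 except for ICL and MLS, whose axes are logarithmic) in 3 libraries of each of 8 groups, with open circles for plastid-rich libraries, filled circles for plastid-poor ones and a bar at the group mean. The 6 FyPP3DN libraries hold ICL at 9.65 to 56.09 FPKM, and KAT2 and CSY3 stand higher with ABA in WT and in libraries with the label nrp1 nrp2 FyPP3DN.

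The promoters of 3 genes are shown: CSY3 and KAT2, the members called in an ABA response, and ICL, the member called in FyPP3DN against WT. Each run is the 250 bases before the RefSeq gene start in assembly TAIR10.1, read on the gene's strand 5′ to 3′, with ACGTG, the core of the ABA-responsive element, or its complement CACGT in capitals. CACGTG, the G-box, holds both. The windows lie at chr2:17806074-17806323 for CSY3, chr2:14051401-14051650 for KAT2 and chr3:7656054-7656303 for ICL, all on the minus strand.
CSY3: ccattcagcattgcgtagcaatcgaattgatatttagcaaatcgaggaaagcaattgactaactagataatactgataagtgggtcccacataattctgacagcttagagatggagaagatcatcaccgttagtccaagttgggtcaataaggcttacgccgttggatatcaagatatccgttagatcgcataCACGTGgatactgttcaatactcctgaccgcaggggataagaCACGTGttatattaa
KAT2: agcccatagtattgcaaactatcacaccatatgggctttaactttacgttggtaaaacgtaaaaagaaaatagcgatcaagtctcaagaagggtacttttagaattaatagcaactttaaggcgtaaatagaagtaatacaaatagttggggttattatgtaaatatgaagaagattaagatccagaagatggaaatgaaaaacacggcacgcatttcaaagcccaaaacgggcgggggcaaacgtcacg
ICL: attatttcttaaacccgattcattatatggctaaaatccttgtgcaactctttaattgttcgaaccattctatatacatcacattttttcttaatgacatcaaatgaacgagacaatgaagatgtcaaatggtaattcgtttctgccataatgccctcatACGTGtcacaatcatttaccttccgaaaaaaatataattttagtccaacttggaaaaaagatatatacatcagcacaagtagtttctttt

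Among the 10 windows, ACGTG on either strand occurred in 3 (CSY3, ICL and PCK1), where 22.9% of 27443 promoters of the same length hold it. CACGTG occurred in CSY3 only, in 2 copies whose first bases lie 57 and 15 bases before the gene start, against 6.49% of promoters. The single ACGTG of ICL begins 90 bases before the gene start, and that of PCK1 87 bases before. CATGCA, the core of the seed RY element, occurred in 0 of the 10 windows (8.43% of promoters), and GATAAG in 2, CSY3 and PCK1 (12.3% of promoters). KAT2, which also answered ABA, held none of these letters in this window. These matches describe the sequence only.

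The first comparison asks how 24 h of ABA changed the route in each genotype. CSY3 rose with ABA in WT, in nrp1 nrp2 and in libraries with the label nrp1 nrp2 FyPP3DN, and KAT2 rose in WT and in libraries with the label nrp1 nrp2 FyPP3DN. No member was called lower. The other 8 members, among them ICL, MLS and PCK1, were called in none of the 4 responses, although ICL was lower without overlap in nrp1 nrp2, as given below.

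CSY3 (AT2G42790, chr2:17802841-17806073, minus strand, 13 exons) encodes a citrate synthase of the peroxisome. In WT it had 27.24, 24.1 and 32.47 FPKM with ABA, against 15.66, 20.36 and 18.46 FPKM in controls. Every treated library stood above every control (log2 0.59 ± 0.14 SE, adjusted p = 0.0107). In libraries with the label nrp1 nrp2 FyPP3DN it had 26.89, 27.08 and 25.38 FPKM with ABA, against 18.09, 15.36 and 17.23 FPKM in controls. This was the firmest of the ABA responses among the 10 genes (0.62 ± 0.14, adjusted p = 0.00554), still called in 17 of 17 alternative settings. In nrp1 nrp2 it had 22.97, 33.42 and 24.05 FPKM with ABA, against 18.89, 18.43 and 18.14 FPKM in controls, again without overlap (0.49 ± 0.14, adjusted p = 0.0417). In FyPP3DN it had 21.84, 22.98 and 27.86 FPKM with ABA, against 19.11, 16.5 and 22.71 FPKM in controls, where the groups overlapped and the test was not passed (0.31 ± 0.14, adjusted p = 0.252).

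The CSY3 call in WT was lost without control replicate 1 or +ABA replicate 3, at an adjusted p up to 0.0753 and a difference of 0.48 to 0.69. The call in nrp1 nrp2 was lost without any 1 of the 3 control libraries or without +ABA replicate 2 (0.33 to 0.59, adjusted p up to 0.234). That +ABA replicate 2 also had the highest summed root genes of all libraries, at 76.67 FPKM. An antisense RNA, AT2G09400, overlaps CSY3 by 198 bases on the opposite strand, and it was listed at 0 in 23 libraries and at 0.21 FPKM in the other.

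KAT2 (AT2G33150, chr2:14047478-14051400, minus strand, 14 exons), the main thiolase of fatty acid beta-oxidation in seedlings, moved by a smaller step. In WT it had 110.8, 113.58 and 110.45 FPKM with ABA, against 83.79, 85.68 and 89.82 FPKM in controls (log2 0.37 ± 0.11, adjusted p = 0.0377). In libraries with the label nrp1 nrp2 FyPP3DN it had 108.91, 108.13 and 112.49 FPKM with ABA, against 82.59, 83.25 and 86.33 FPKM in controls (0.38 ± 0.11, adjusted p = 0.0219). In both, the groups were far apart relative to the spread within them. In nrp1 nrp2 it had 108.6, 135.15 and 104.77 FPKM with ABA, against 80.88, 90.69 and 106.24 FPKM in controls, and 1 control library reached into the treated range (0.32 ± 0.11, adjusted p = 0.0877; 0.0297 with library type as a block).

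FyPP3DN differed in outline. KAT2 had 100.46, 99.09 and 114.1 FPKM with ABA there, against 107.46, 91.64 and 117.2 FPKM in controls, so that treated and untreated libraries covered the same range (log2 -0.01 ± 0.11, adjusted p = 0.984). Untreated FyPP3DN libraries stood above untreated WT libraries (91.64 to 117.2 against 83.79 to 89.82 FPKM) without passing the test (0.28 ± 0.11, adjusted p = 0.267). The difference between the ABA responses of FyPP3DN and WT did not pass either (-0.37 ± 0.15, adjusted p = 0.515). The KAT2 call in WT was lost without any 1 of the 6 libraries (adjusted p up to 0.115). The call in libraries with the label nrp1 nrp2 FyPP3DN was lost without any but control replicate 3 (adjusted p up to 0.0704). In all of these the difference stayed between 0.34 and 0.40.

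Read against all genes, 2 of 10 members were called in WT, where 7.7% of the genes tested were, and 1 of 10 in nrp1 nrp2, where 6.02% were. In FyPP3DN 0 of 10 were called by limma, where 5.95% of genes were. There 1 member had an unadjusted p under 0.05, as did 18.2% of all genes. In libraries with the label nrp1 nrp2 FyPP3DN 2 of 10 were called, where 11.4% were. The median difference over the members was 0.13 in WT beside -0.01 over all genes, and 0.07 beside -0.05 in nrp1 nrp2. It was 0.02 beside 0.03 in FyPP3DN and 0.04 beside 0.04 in libraries with the label nrp1 nrp2 FyPP3DN. The called members were CSY3 and KAT2 in WT and in libraries with the label nrp1 nrp2 FyPP3DN, and CSY3 alone in nrp1 nrp2.

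**Figure D2:**
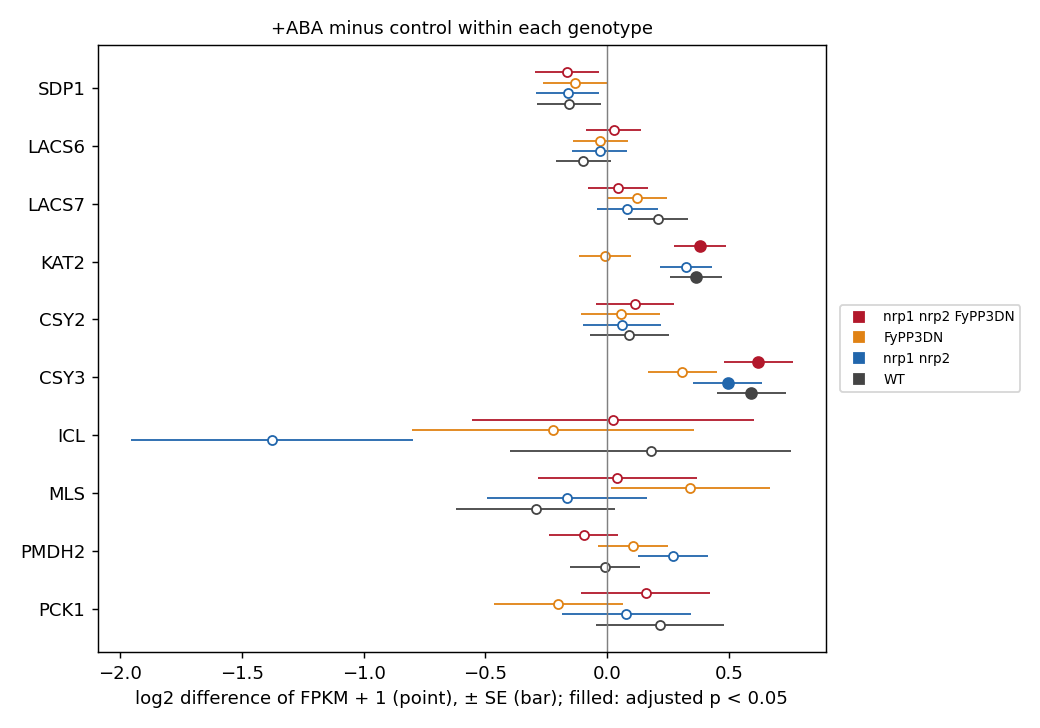
Difference with ABA against control (horizontal axis, log2 of FPKM + 1, points with SE bars) for the 10 genes in each genotype, filled where the adjusted p is under 0.05. CSY3 is filled in 3 genotypes and KAT2 in 2, while the KAT2 point of FyPP3DN lies at -0.01.

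The members that supply the fatty acids showed little. SDP1, the lipase, lay between 7.89 and 13.74 FPKM in all libraries, with ABA responses of -0.13 to -0.16. In libraries with the label nrp1 nrp2 FyPP3DN it had 10.8, 11.76 and 11.08 FPKM with ABA, against 11.8, 13.74 and 12.58 FPKM in controls, and the groups did not overlap (log2 -0.16 ± 0.13, adjusted p = 0.517). LACS6 lay between 19.28 and 26.59 FPKM and LACS7 between 6.34 and 10.31 FPKM. In WT, LACS7 had 9.12, 8.97 and 7.82 FPKM with ABA, against 6.79, 7.64 and 7.56 FPKM in controls, a separation of the groups that did not pass the test (0.21 ± 0.12, adjusted p = 0.452). The lipase and both synthetases were called in none of the 17 comparisons without a library-type block.

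CSY2, the second citrate synthase gene of the peroxisome, was not called in any comparison. It had 17.01, 18.54 and 17.82 FPKM in WT with ABA, against 13.76, 18.19 and 18.35 FPKM in WT controls, with overlap (log2 0.09 ± 0.16, adjusted p = 0.894). Its ABA response lay between 0.05 and 0.11 in all 4 genotypes. CSY2 ran from 13.3 to 17.01 FPKM in plastid-rich and from 16.48 to 23.99 FPKM in plastid-poor libraries, a median difference of -0.32 on the log2 scale within groups.

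At the sugar end, PCK1 was called in none either. Its ABA response was 0.22 ± 0.26 in WT and -0.20 ± 0.26 in FyPP3DN, with an error as wide as the difference. PCK1 was lower in the plastid-rich library of 6 of 8 groups, by a median of 0.53 on the log2 scale, which was the largest such gap among the 10 genes. Over all 24 libraries, the 3 genes whose level followed PCK1 most closely were PLDALPHA1 (Pearson r = 0.94), FAAH (0.93) and NRT1.9 (0.928), out of 6611 genes compared. For PLDALPHA1, r was 0.891 over the 16 plastid-poor and 0.927 over the 8 plastid-rich libraries, and 0.923 without the 2 libraries farthest in PCK1. These libraries share the 8 groups and the library type, and the values are a description.

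SDP1 was followed most closely by ZTL (r = 0.918), DND1 (0.9) and CRY2 (0.895) over the 24 libraries. For ZTL, which encodes a blue-light receptor of the clock, r was 0.902 over the 16 plastid-poor and 0.922 over the 8 plastid-rich libraries, with a Spearman rho of 0.957 over all. CRY2 encodes a blue-light receptor too, and DND1 a cyclic nucleotide-gated channel. SDP1 had its highest group mean, 12.7 ± 0.976 FPKM (SD, n = 3), in controls labelled nrp1 nrp2 FyPP3DN, and its lowest in FyPP3DN with ABA, at 8.12, 7.89 and 10.99 FPKM.

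The second comparison asks how each line differed from WT. ICL (AT3G21720, chr3:7652487-7656053, minus strand, 5 exons) was higher in FyPP3DN than in WT. Without ABA it had 10.2, 9.65 and 56.09 FPKM in FyPP3DN, against 1.17, 1.83 and 1.88 FPKM in WT (log2 2.86 ± 0.58, adjusted p = 0.0246). With ABA it had 11.64, 13.46 and 22.47 FPKM in FyPP3DN, against 1.47, 2.2 and 2.24 FPKM in WT (2.46 ± 0.58, adjusted p = 0.0459). The lowest FyPP3DN library, treated or not, thus stood above the highest WT library, and ABA did not change ICL detectably within FyPP3DN (-0.22 ± 0.58, adjusted p = 0.897).

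The 6 FyPP3DN libraries had a median of 12.6 FPKM of ICL, and the 6 WT libraries one of 1.86 FPKM. Of the 18 libraries that were not FyPP3DN, 17 lay between 0.41 and 2.24 FPKM. The exception was control replicate 2 of nrp1 nrp2, at 14.46 FPKM, within the FyPP3DN range. The other 2 controls of nrp1 nrp2 had 1.04 and 1.54 FPKM, and the 3 libraries with ABA had 0.41, 0.8 and 0.8 FPKM, all below WT with ABA. The ABA response of nrp1 nrp2 was -1.38 ± 0.58 (adjusted p = 0.229) with replicate 2 and -0.46 without it and without FyPP3DN control replicate 3. The differences of nrp1 nrp2 from WT were 0.73 without ABA (adjusted p = 1) and -0.83 with ABA (adjusted p = 1).

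MLS (AT5G03860), the partner of ICL in the cycle, leaned the same way by less. With ABA it had 4.26, 4.13 and 9.63 FPKM in FyPP3DN, against 2, 1.54 and 2.15 FPKM in WT, without overlap (log2 1.19 ± 0.33, adjusted p = 0.105). Without ABA it had 3.94, 2.02 and 8.45 FPKM in FyPP3DN, against 1.82, 2.69 and 3.25 FPKM in WT, with overlap (0.56 ± 0.33, adjusted p = 0.516). All 3 treated FyPP3DN libraries were above all 3 treated WT libraries. MLS was not called in either condition, but with library type as a block it was called with ABA (adjusted p = 0.0277).

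The other 8 members were not called in FyPP3DN against WT without such a block. PMDH2 had 246.73, 187.73 and 270.96 FPKM in untreated FyPP3DN, against 261.68, 311.42 and 341.53 FPKM in WT (log2 -0.38 ± 0.14, adjusted p = 0.26), and was called lower with library type as a block (adjusted p = 0.0409). Without ABA 1 of 10 members was called in FyPP3DN against WT, where 0.579% of genes were, and with ABA 1 of 10, where 0.892% were. In nrp1 nrp2 against WT, limma called 0 of 10 members without ABA (0.0923% of genes) and 0 of 10 with ABA (0.0667%), and 0 and 0 had an unadjusted p under 0.05. The libraries labelled nrp1 nrp2 FyPP3DN likewise had 0 of 10 called against WT without ABA (0.0821%) and 0 of 10 with ABA (0.0872%), with 0 and 0 at an unadjusted p under 0.05.

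**Figure D3:**
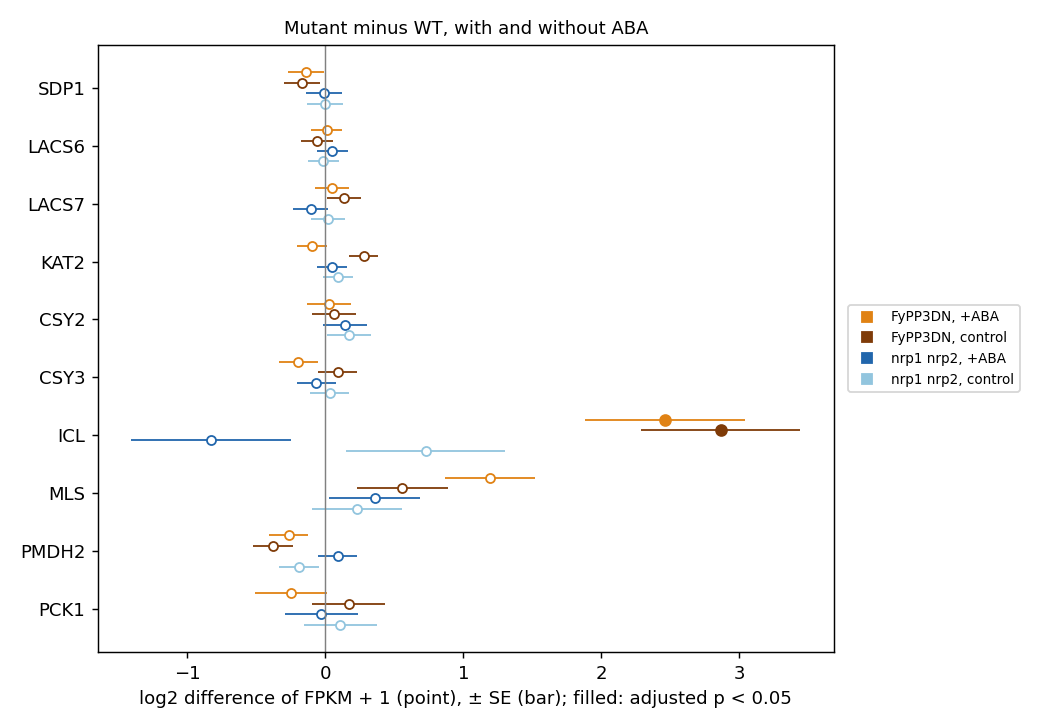
Difference of FyPP3DN and of nrp1 nrp2 from WT (horizontal axis, log2 of FPKM + 1, points with SE bars) for the 10 genes, with and without ABA, filled where the adjusted p is under 0.05. The 2 filled points are ICL in FyPP3DN, at 2.46 with ABA and 2.86 without.

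The ICL call was often lost when 1 library was left out. Without ABA the call was lost when FyPP3DN control replicate 3, the library at 56.09 FPKM, was left out (2.07, adjusted p = 0.083), and when any 1 of the 3 WT controls was left out (adjusted p up to 0.0871). With ABA it was lost without any 1 of the 6 libraries, at 2.2 to 2.64 and an adjusted p up to 0.177. The difference kept its direction in all of these repeats. In the 16 plastid-poor libraries alone it was 3.15 without ABA (adjusted p = 0.106) and 2.52 with ABA (adjusted p = 0.316). The 8 nuclear photosynthesis genes had a median difference of -0.35 with ABA and -0.32 without. By limma 0 were called in both (5 and 4 at an unadjusted p under 0.05). Such a p was found for 11.2% of all genes with ABA and 12.7% without. The 8 root genes had a median difference of -0.56 with ABA and 0.29 without, again with 0 called (1 and 0 at an unadjusted p under 0.05), and the part of tissue makeup in the ICL result was not tested.

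Transcripts of seed storage and maturation genes moved with ICL and MLS in some libraries. The 9 genes of the seed storage and maturation list summed to 38.57, 11.89 and 64.68 FPKM in FyPP3DN with ABA, against 7.83, 4.72 and 7.27 FPKM in WT with ABA. Without ABA they summed to 2.67, 1.25 and 31.21 FPKM in FyPP3DN, against 0.81, 1.07 and 0.39 FPKM in WT. The sum was also raised in control replicate 2 of nrp1 nrp2, at 12.85 FPKM, beside 2.25 and 3.54 FPKM in its other replicates. The 2 control libraries with the largest sums, FyPP3DN replicate 3 and nrp1 nrp2 replicate 2, were also those with the most ICL (56.09 and 14.46 FPKM) and the most MLS (8.45 and 4.92 FPKM) among controls.

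The match was partial. FyPP3DN control replicates 1 and 2 held ICL at 10.2 and 9.65 FPKM with seed sums of 2.67 and 1.25 FPKM. WT with ABA held ICL at 1.47 to 2.24 FPKM with seed sums of 4.72 to 7.83 FPKM. These WT sums include EM6, a late embryogenesis gene that rose with ABA in WT (log2 1.79, limma adjusted p = 0.000988). The storage protein genes CRA1 (0.94, adjusted p = 0.665) and CRC (0.02, adjusted p = 0.997) were not called there. Of the 9 seed genes 4 passed the filter (CRA1, CRC, EM1 and EM6), and CRB and SESA1 to SESA4 were at 0 in 10 to 13 libraries and reached at most 1.05 FPKM. By limma 0 of the 4 were called in FyPP3DN against WT, with 4 at an unadjusted p under 0.05 with ABA and 1 without. Of all genes, 11.2% with ABA and 12.7% without had such a p. The filter counts FyPP3DN libraries too, so high values there can help a gene pass. CRA1, a cruciferin, had 10.76, 4.29 and 30.02 FPKM in FyPP3DN with ABA, against 2.07, 1.06 and 0.52 FPKM in WT with ABA (log2 2.55, adjusted p = 0.162).

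When the 2 control libraries with the most seed transcript were left out together, a repeat chosen after these values were seen, the difference of FyPP3DN from WT without ABA was 2.07 for ICL and 0.13 for MLS, against 2.86 and 0.56 with all libraries. The differences with ABA use neither library and stayed at 2.46 for ICL and 1.19 for MLS. Both libraries were also the controls with the most ICL and MLS, so leaving them out lowers the estimated spread by construction, and no p-value of this repeat is given for these genes. CSY3 no longer passed the test in nrp1 nrp2 (0.49, adjusted p = 0.0978).

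**Figure D4:**
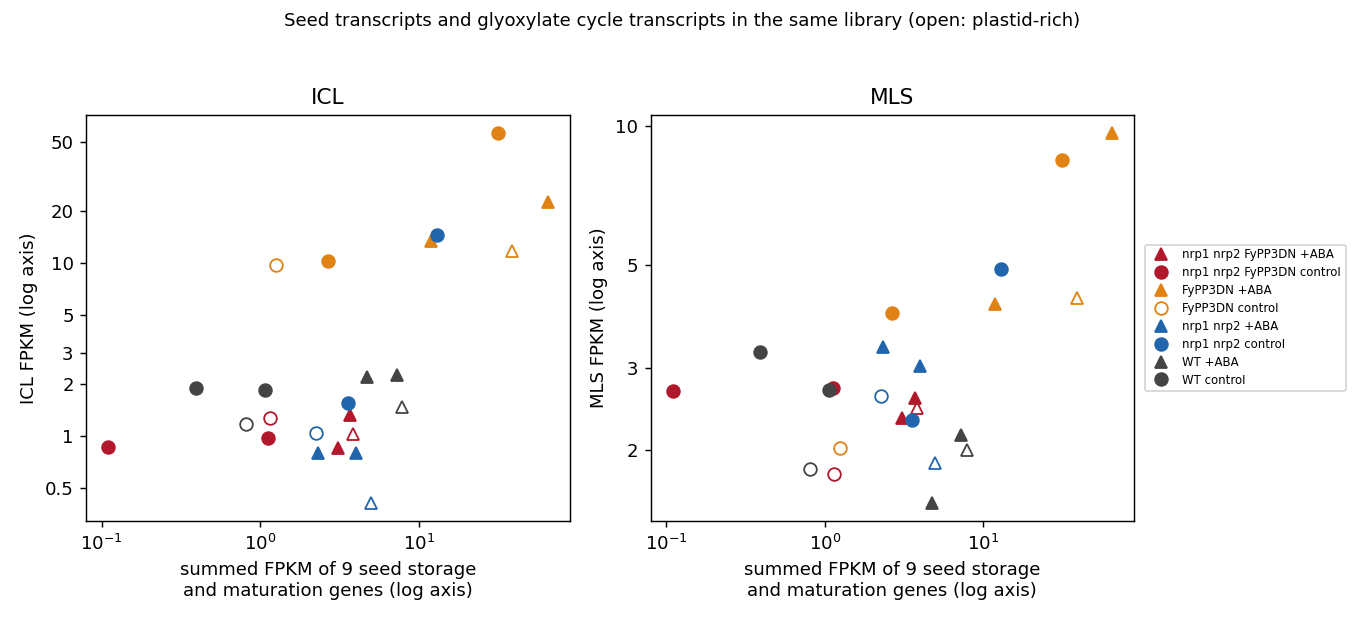
ICL (left) and MLS (right) in FPKM on logarithmic vertical axes against the summed FPKM of 9 seed storage and maturation genes (logarithmic horizontal axis), 1 symbol per library, triangles with ABA, circles without, open for plastid-rich libraries. The 6 FyPP3DN libraries lie at 9.65 FPKM of ICL or more over seed sums from 1.25 to 64.68 FPKM, and control replicate 2 of nrp1 nrp2 lies among them at 14.46 FPKM.

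The 3 genes whose level over the 24 libraries was most like that of ICL were CYP71A12, CRA1 and FYPP3 (Spearman rho 0.647, 0.529 and 0.446). Ranked genes needed a group mean of at least 5 FPKM. CYP71A12 and CRA1 had their highest group mean in FyPP3DN, so high values there can help them enter the ranking. Because the 6 FyPP3DN libraries lie apart from 17 of the other 18 in ICL, the likeness is given within each set. For CYP71A12, a cytochrome P450 of camalexin synthesis, r was 0.876 over the 6 FyPP3DN libraries and 0.193 over the other 18. For CRA1 it was 0.714 over the 6 and 0.761 over the 18, and 0.205 over 17 without control replicate 2 of nrp1 nrp2. For FYPP3 itself it was 0.68 over the 6 and -0.08 over the 18, so that within FyPP3DN the library with the most FYPP3 (control replicate 3, 85.17 FPKM) was also the one with the most ICL.

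MLS was most like CRU3, CRA1 and XTH5 (Spearman rho 0.432, 0.234 and 0.75). All had their highest group mean in FyPP3DN, so the same limit of the ranking applies. For CRU3, the cruciferin gene called CRC above, r was 0.912 over the 6 FyPP3DN libraries, 0.554 over the other 18 and -0.27 over 17 without control replicate 2 of nrp1 nrp2. For XTH5, a xyloglucan endotransglucosylase, it was 0.905, 0.66 and 0.58 in the same sets. Outside FyPP3DN, the likeness of MLS to CRU3 thus rested on that 1 library.

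The third comparison sets libraries with the label nrp1 nrp2 FyPP3DN beside FyPP3DN. ICL was lower in them without ABA, at 1.26, 0.86 and 0.97 FPKM, against 10.2, 9.65 and 56.09 FPKM in FyPP3DN (log2 -3.23 ± 0.58, adjusted p = 0.0028). With ABA it was lower too, at 1.03, 1.31 and 0.85 FPKM, against 11.64, 13.46 and 22.47 FPKM (-2.98 ± 0.58, adjusted p = 0.00946). Both calls held without any 1 of the 6 libraries (adjusted p up to 0.0153 and up to 0.0463). These comparisons share the FyPP3DN libraries with those against WT, so they are not separate evidence on FyPP3DN.

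PMDH2 (AT5G09660), which encodes a malate dehydrogenase that also serves leaf peroxisomes, was higher in libraries with the label nrp1 nrp2 FyPP3DN without ABA. It had 341.9, 348.39 and 372.58 FPKM there, against 246.73, 187.73 and 270.96 FPKM in FyPP3DN, with no overlap (log2 0.61 ± 0.14, adjusted p = 0.0147). The call was lost without FyPP3DN control replicate 2 or nrp1 nrp2 FyPP3DN control replicate 3 (0.45 to 0.72, adjusted p up to 0.0555). With ABA it had 298.62, 346.39 and 350.25 FPKM, against 211.22, 254.24 and 291.22 FPKM in FyPP3DN (0.40 ± 0.14, adjusted p = 0.151). MLS with ABA had 2.46, 2.59 and 2.34 FPKM, against 4.26, 4.13 and 9.63 FPKM in FyPP3DN, also without overlap (-0.93 ± 0.33, adjusted p = 0.146). KAT2 without ABA had 82.59, 83.25 and 86.33 FPKM, against 107.46, 91.64 and 117.2 FPKM in FyPP3DN, without overlap and without passing the test (-0.32 ± 0.11, adjusted p = 0.0729). With library type as a block, KAT2 (adjusted p = 0.0247) and SDP1 (0.33, adjusted p = 0.0321) were called without ABA, and PMDH2 with ABA (adjusted p = 0.0191).

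In this comparison 2 of 10 members were called without ABA, 1 higher and 1 lower, where 7.58% of genes were, and 1 of 10 with ABA, where 2.01% were. Leaf peroxisome genes moved with PMDH2 without ABA: 4 of 8 were higher, among them GGT1 (0.63, adjusted p = 0.000902) and AGT1 (0.56, adjusted p = 0.00237), both aminotransferases of photorespiration, and 0 were lower. Of 8 nuclear photosynthesis genes 2 were higher (LHCA1 by 0.65, PSAF by 0.36). The 8 root genes all had a negative difference, with a median of -0.51 and 0 called (0 at an unadjusted p under 0.05), and the part of tissue makeup in these values was not tested. Set beside nrp1 nrp2, libraries with the label nrp1 nrp2 FyPP3DN had 0 of 10 members called without ABA, where 0.0462% of genes were. At an unadjusted p under 0.05 there was 1, PMDH2, where 11.3% of all genes had such a p. PMDH2 was called with library type as a block (0.42, adjusted p = 0.0447). With ABA 0 of 10 were called, where 0.0103% of genes were, and 0 had an unadjusted p under 0.05.

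The last comparison asks whether a line changed the ABA response. By limma 0 of 10 members were called in the difference between nrp1 nrp2 and WT (0% of genes), 0 of 10 between FyPP3DN and WT (0.144%) and 0 of 10 between libraries with the label nrp1 nrp2 FyPP3DN and WT (0%). At an unadjusted p under 0.05 there were 0, 1 and 0 members, the 1 being KAT2 as given above. Such a p was found for 1.81%, 8.13% and 1.42% of all genes. The largest differences were those of ICL, at -1.56 ± 0.82 for nrp1 nrp2 (adjusted p = 1), and of MLS, at 0.64 ± 0.46 for FyPP3DN (adjusted p = 0.759). With an SE of 0.82 for ICL and 0.46 for MLS, a changed response of the size of the CSY3 response was not detectable for ICL and MLS.

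Other genes of the route and of the peroxisome were counted in the same fit. Of 6 other genes of lipolysis and import, such as PXA1, the fatty acid importer of the peroxisome, limma called 0 in each of the 4 ABA responses (0 to 3 at an unadjusted p under 0.05, the 3 in FyPP3DN, where 18.2% of all genes had one). Of 12 other beta-oxidation genes, 0 were called in WT and in nrp1 nrp2. In FyPP3DN 1 fell, the acyl-CoA oxidase gene ACX1 (log2 -0.43, adjusted p = 0.0201). In libraries with the label nrp1 nrp2 FyPP3DN, DCI1 rose by 0.44 (adjusted p = 0.00605) while ACX4 fell by 0.33 (adjusted p = 0.0376).

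Of 8 other genes of the glyoxylate cycle and sugar synthesis 7 passed the filter, since CSY1, another citrate synthase gene of the peroxisome, was listed at 0 in all 24 libraries. PPDK, the pyruvate phosphate dikinase gene, rose with ABA in WT (log2 0.99 ± 0.25, adjusted p = 0.017), and FBP, a fructose bisphosphatase gene, fell in libraries with the label nrp1 nrp2 FyPP3DN (-0.35, adjusted p = 0.00664). PCK2, the second carboxykinase gene, reached at most 1.65 FPKM. Of 19 peroxisome biogenesis genes, PEX13 (-0.27) and PEX11C (-0.28) fell with ABA in WT, and 0 were called in nrp1 nrp2 and FyPP3DN. In the latter genotypes 2 and 1 had an unadjusted p under 0.05, where 15.2% and 18.2% of all genes had one. In libraries with the label nrp1 nrp2 FyPP3DN PEX13 (-0.43) and PEX11C (-0.28) fell and PEX4 rose (0.28). ABA itself acted in every genotype: of 10 ABA-responsive genes, 7 rose and 2 fell in WT, and 6 or 7 rose and 2 fell in each other genotype. In WT, KIN1 stood at 6.13, PYL6 at -3.53 and PP2CA at 1.96. KIN1 rose by 4.33 in FyPP3DN, a smaller ABA response than in WT (difference -1.81 ± 0.36, limma adjusted p = 0.0465). No other gene of that list was called in this difference. Of 8 leaf peroxisome genes 1 fell in WT, AGT1 by 0.36 (adjusted p = 0.0242), and 2 fell in libraries with the label nrp1 nrp2 FyPP3DN, AGT1 by 0.56 and GGT1 by 0.35. In FyPP3DN against WT with ABA 1 of the 8 fell, CAT3, a catalase gene (-0.78, adjusted p = 0.014). Without ABA, limma called 0 genes of the route and peroxisome lists in FyPP3DN against WT and 0 in nrp1 nrp2 against WT. At an unadjusted p under 0.05 there were, in FyPP3DN against WT, 4 of 8 leaf peroxisome genes, 3 of 19 peroxisome biogenesis genes, 3 of 12 beta-oxidation genes, 2 of 7 genes of the glyoxylate cycle and sugar synthesis, and 1 of 6 genes of lipolysis and import, where 12.7% of all genes had one. In nrp1 nrp2 against WT there were 1 of 12 beta-oxidation genes and 1 of 19 peroxisome biogenesis genes, where 4.18% of all genes had one.

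Reads could be shared with near copies for few bases only. Of the 50-base words of KAT2 0.191% also occur in KAT1, and of those of CSY2 1.07% also occur in CSY1, while those of the other 8 genes occur in no other transcript of the annotation. The plastid-rich library was the lowest of its group in 10 of 10 members in untreated FyPP3DN and untreated WT. Of all genes, 42.5% and 50.3% were lowest in it there. In WT with ABA it was lowest in 3 of 10 members, where 38.9% of all genes were. FyPP3DN control replicate 3 was the highest of its group in 10 of 10 members, where 43.1% of all genes were highest in it.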

How the data were processed

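Per the labels, 24 Arabidopsis seedling libraries were sequenced after poly(A) isolation or removal of ribosomal RNA, without a statement of which library had which. Gene-level FPKM values were deposited by the authors with 2 decimals; Trimmomatic 0.30, HISAT2 2.0.1 and the TAIR10 build are named in the submitters' processing notes, and the counting tool and its strand setting are not stated there. Depth was estimated from the smallest steps between FPKM values of short genes, of which 98.0% to 100% per library were whole fragments within 0.1 fragment.

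Values were taken as log2(FPKM + 1), so differences of low genes are understated. Genes at 1 FPKM or more in at least 3 libraries were kept, 19500 of 32833. One limma 3.58.1 model (R 4.3.3) with 8 group means and an intensity trend gave 17 comparisons, each adjusted by the Benjamini-Hochberg method over all genes tested; FPKM are not counts, so no count model was used. The procedure was tested on simulated data. Libraries with over 5% of FPKM from plastid genes were called plastid-rich. Likeness was ranked by Pearson's r of log2 values over 24 libraries, among genes with a group mean of at least 5 FPKM, and the top 3 were named. Gene positions and promoters came from RefSeq (TAIR10.1), which held 32548 of the gene identifiers. Tables were handled with Python 3.11.15, pandas 2.3.3 and numpy 2.4.6, and drawn with matplotlib 3.10.9.

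All 10 members are reported. Of each other list, up to 3 called genes are named in the ABA responses and in FyPP3DN and nrp1 nrp2 against WT without ABA. They are not always those with the smallest adjusted p, and some called genes are not named. Other genes named (CRA1, PCK2, CSY1, CAT3 and those in libraries labelled nrp1 nrp2 FyPP3DN against FyPP3DN) were chosen after their values were seen. Members and lists were chosen with earlier results of these data known. Same-numbered libraries deviated together in 13 of 17 comparisons (lowest pair correlation 0.153 to 0.558), and not in the 4 that use FyPP3DN controls (-0.69 to -0.59). In FyPP3DN controls the plastid-rich library was replicate 2 (18.8%, against 0.0252% in replicate 1), and in every other group it was replicate 1. Outside FyPP3DN controls the shared number thus coincides with library type, and a pairing apart from library type was not tested. The main model has no replicate block. Alternatives were another pseudocount, no filter, other scalings, fits to the compared groups only, blocks for library type and replicate, plastid-poor libraries alone, and each library left out.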

Additional observations from a re-analysis of the deposited data

How the results depend on the processing

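No difference of a member changed sign among called values in 3070 alternative values. The replicate block (same-numbered libraries as pairs) changed no count or call of the members, although its pairs mix library types where FyPP3DN controls enter. It did move counts over all genes: from 113 to 191 for FyPP3DN against WT without ABA, from 9 to 41 for libraries labelled nrp1 nrp2 FyPP3DN against nrp1 nrp2 without ABA, and from 392 to 592 against FyPP3DN with ABA. The numbers of members called moved as follows, and the causes were not tested. A pseudocount of 0.1 gave 0 for FyPP3DN against WT with ABA, where ICL had an adjusted p of 0.0546, and no filter gave 0 there (0.07) and 0 for ABA in nrp1 nrp2 (CSY3, 0.0527). Median-of-ratios scaling gave 2 for ABA in nrp1 nrp2 and 1 for ABA in libraries labelled nrp1 nrp2 FyPP3DN, quantile normalization gave 1 for ABA in WT, and rescaling nuclear genes to 1 common total gave 0 for ABA in nrp1 nrp2. Fits to the compared groups alone gave 0 for ABA in nrp1 nrp2, 0 for FyPP3DN against WT without ABA (ICL, 0.364) and 0 for libraries labelled nrp1 nrp2 FyPP3DN against FyPP3DN without ABA (ICL, 0.0767). Library type as a block gave 2 for ABA in nrp1 nrp2 (KAT2 added), 2 and 2 for FyPP3DN against WT with and without ABA (MLS and PMDH2 added), 2 and 4 for libraries labelled nrp1 nrp2 FyPP3DN against FyPP3DN with and without ABA, and 1 for them against nrp1 nrp2 without ABA. The plastid-poor libraries alone, with 2 per group, gave 0 for ABA in WT, 0 in nrp1 nrp2 and 1 in libraries labelled nrp1 nrp2 FyPP3DN, 0 and 0 for FyPP3DN against WT with and without ABA, and 0 and 1 for libraries labelled nrp1 nrp2 FyPP3DN against FyPP3DN. Without the 2 control libraries richest in seed transcript, the counts were 0 for ABA in nrp1 nrp2 and 2 for FyPP3DN against WT with ABA, where the differences are unchanged and the lower spread follows from leaving these libraries out. With each library left out in turn, the count ranged from 0 to 1 for ABA in WT and in nrp1 nrp2, from 1 to 2 in libraries labelled nrp1 nrp2 FyPP3DN, from 0 to 1 for FyPP3DN against WT without ABA and was 0 with ABA, and ranged from 1 to 3 for libraries labelled nrp1 nrp2 FyPP3DN against FyPP3DN without ABA.

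Over all genes, fits to the compared groups alone against the library-type block gave 9 and 459 calls for FyPP3DN against WT without ABA, 81 and 363 with ABA (174 as reported), and 54 and 3016 for libraries labelled nrp1 nrp2 FyPP3DN against FyPP3DN without ABA (1479 as reported). For ABA in libraries labelled nrp1 nrp2 FyPP3DN, 59.5% of calls were higher, against 49.5% under median-of-ratios scaling and 48.3% under quantile normalization. At 3 libraries a group, ICL and MLS, the lowest of the 10 genes, had the widest standard errors.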

Other observations

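Of 7 oil body genes, whose proteins coat the oil that the route consumes, 3 passed the filter. The filter counts treated libraries too, so high values there can carry a gene past it. Among the 3, 2 rose with ABA in FyPP3DN and in WT, where 5.95% and 7.7% of all genes were called. OLEO2 rose by 3.48 in FyPP3DN and by 2.56 in WT, and OLEO1 by 2.33 in FyPP3DN and by 1.51 in WT (limma, adjusted p under the 0.05 threshold in each). In nrp1 nrp2 and in libraries labelled nrp1 nrp2 FyPP3DN limma called 0 of the 3 (0 and 0 at an unadjusted p under 0.05). The 7 genes summed to 33.84, 11.04 and 56.56 FPKM in FyPP3DN with ABA, against 2.17, 1.29 and 4.63 FPKM in FyPP3DN controls, and to 10.94, 6.93 and 8.19 FPKM in WT with ABA, against 1.68, 1.81 and 0.98 FPKM in WT controls. EM6, a late embryogenesis gene, rose with ABA in all 4 genotypes, by 2.49 in FyPP3DN, 1.62 in libraries labelled nrp1 nrp2 FyPP3DN, 1.29 in nrp1 nrp2 and 1.79 in WT.

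Of 8 genes of senescence and carbon starvation 7 passed the filter, and with ABA 2 fell in FyPP3DN, 3 in libraries labelled nrp1 nrp2 FyPP3DN, 2 in nrp1 nrp2 and 3 in WT. Of all genes tested, 5.95%, 11.4%, 6.02% and 7.7% were called in these responses, in the same order. DIN10, which sugar depletion is known to raise, fell by 1.11 in FyPP3DN, by 1.81 in libraries labelled nrp1 nrp2 FyPP3DN, by 1.56 in nrp1 nrp2 and by 1.56 in WT. ASN1, the dark-induced asparagine synthetase gene, fell by 1.33 in FyPP3DN, by 2.56 in libraries labelled nrp1 nrp2 FyPP3DN and by 1.44 in WT.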
